A study of Homo sapiens with 4 samples.

Results

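TNF, IL8 and 7 chemokine ligand genes were described across 4 human acute myeloid leukemia cell lines, each sequenced as 1 RNA library. The genes were the rows of the deposited tables with the symbols TNF, IL8 (CXCL8 in current naming), CXCL1, CXCL2, CXCL3, CCL2, CCL3, CCL4 and CCL5, 9 of 21865 symbols in all. They were selected on their RPKM values in these same 4 libraries, so their levels are given as a description and carry no test. RPKM scales the reads of a gene by its length and by the library total, which allows levels to be compared between genes.

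THP-1 and MonoMac-1 are known as monocytic lines with an MLL-AF9 fusion gene, HL60 as a promyelocytic line and KG1a as an immature, CD34-bearing line, both without that fusion. This is general knowledge, since the labels name only the line. All 4 lines grew in serum-containing medium, and the labels name no stimulus for any of them. The THP-1 sample is titled with an added "tr" of unexplained meaning, so a treatment of that culture cannot be told apart from the line itself. Each line was 1 library, and every difference below lies between single cultures of different lines, with no replicate.

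TNF is the founding ligand of its cytokine superfamily and signals through TNFRSF1A and TNFRSF1B. IL8, CXCL1, CXCL2 and CXCL3 are CXC chemokines that attract neutrophils through CXCR1 and CXCR2, and CCL2, CCL3, CCL4 and CCL5 are CC chemokines that attract monocytes and lymphocytes through receptors such as CCR1 and CCR2. In monocytes and macrophages these genes are classical early targets of NF-kappaB, a transcription factor held inactive by inhibitor proteins until a stimulus such as endotoxin or TNF itself releases it. Their transcripts are often short-lived, because AU-rich elements recruit decay factors such as the product of ZFP36.

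The stretches directly upstream of the genes show how closely some of them are related, and are given before the levels for that reason. RefSeq promoter windows (GRCh38.p14) were matched by symbol for 6 of the 9 genes; CCL2, CCL4 and CCL5 had no entry. The last 150 bases before the annotated start are printed 5′ to 3′ on the gene's own strand. Capitals mark matches to 4 motifs searched on both strands, the kappaB type GGANNTTCC, the C/EBP type TTNNGCAA, the promoter box TATAAA and the AP-1 site, spelled TGA, then any base, then TCA.
IL8 (chr4:73740419-73740568, plus strand): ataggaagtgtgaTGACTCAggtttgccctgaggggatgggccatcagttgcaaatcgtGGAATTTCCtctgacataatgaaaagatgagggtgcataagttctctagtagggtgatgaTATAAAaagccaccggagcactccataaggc
CXCL1 (chr4:73869243-73869392, plus strand): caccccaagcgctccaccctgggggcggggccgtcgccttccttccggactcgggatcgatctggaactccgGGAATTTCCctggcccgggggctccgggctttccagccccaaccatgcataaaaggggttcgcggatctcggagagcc
CXCL2 (chr4:74099196-74099345, minus strand): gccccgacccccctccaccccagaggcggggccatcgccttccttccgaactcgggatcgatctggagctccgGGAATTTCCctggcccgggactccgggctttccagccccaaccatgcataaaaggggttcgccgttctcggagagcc
CXCL3 (chr4:74038690-74038839, minus strand): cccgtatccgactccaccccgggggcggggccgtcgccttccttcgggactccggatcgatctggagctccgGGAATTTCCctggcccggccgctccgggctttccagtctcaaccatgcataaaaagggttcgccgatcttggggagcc
TNF (chr6:31575415-31575564, plus strand): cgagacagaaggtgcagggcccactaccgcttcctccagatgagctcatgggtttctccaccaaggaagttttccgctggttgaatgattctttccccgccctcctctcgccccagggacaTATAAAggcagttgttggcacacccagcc
CCL3 (chr17:36090144-36090293, minus strand): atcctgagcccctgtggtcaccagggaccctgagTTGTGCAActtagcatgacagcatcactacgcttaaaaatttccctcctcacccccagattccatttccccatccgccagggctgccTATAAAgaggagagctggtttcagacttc

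The letters GGAATTTCC stood at -91 to -83 in IL8, at -78 to -70 in CXCL1 and CXCL3 and at -77 to -69 in CXCL2, counted back from the base before the start. Within windows of 300 bases, 250 before and 50 after the start, 4 of the 6 genes held GGANNTTCC, and 4.56% of all 35116 RefSeq windows did. TNF and CCL3 held no match to it in this window. An AP-1 match was present in 1 of the 6, IL8 (7.71% of all windows). TTNNGCAA matched in CCL3, and in CXCL2 upstream of the printed stretch (10.5% of all windows). TATAAA matched in IL8, TNF and CCL3 (11.5% of all windows). The 3 CXCL stretches were 86.1% to 88.7% identical to each other in global alignment, whereas IL8 was 41.4% to 42.9% identical to them. Pairs that included TNF or CCL3 lay at 45.1% to 51.2%, so the IL8 stretch was no closer to the CXCL stretches than those pairs were. A match is a string of letters and not a measured binding site.

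The 9 genes were most abundant in HL60 and least abundant in KG1a. Summed over the 9, THP-1 had 36.8 RPKM, MonoMac-1 57.8, HL60 267 and KG1a 6.29. The HL60 sum was thus 7.25 times that of THP-1, 4.62 times that of MonoMac-1 and 42.4 times that of KG1a. Of the 9 genes 7 reached 1 RPKM in some line and are called measured, as were 12976 genes in all; CXCL1 and CXCL3 did not. HL60 held the highest level of 6 genes, namely IL8, TNF, CCL2, CCL4, CCL5 and the unmeasured CXCL3, where 23.1% of all measured genes were highest in HL60. IL8 and CCL2 led there by 4-fold over the next line, as did 0.455% of measured genes. CXCL2 was the 1 member highest in KG1a (31% of measured genes), also by 4-fold over the next line (2.82%), a margin lost under median-of-ratios scaling and quantile normalization. CCL3 was the 1 highest in MonoMac-1 (24.9%) and CXCL1 the 1 highest in THP-1 (21%). KG1a was lowest for IL8, TNF, CCL2, CCL3, CCL4 and CCL5, against 29.7% of measured genes, although for CCL4 its counting interval overlapped that of THP-1. In a bulk library, fewer cells that carry a transcript and less transcript per cell cannot be told apart.

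**Figure D1:**
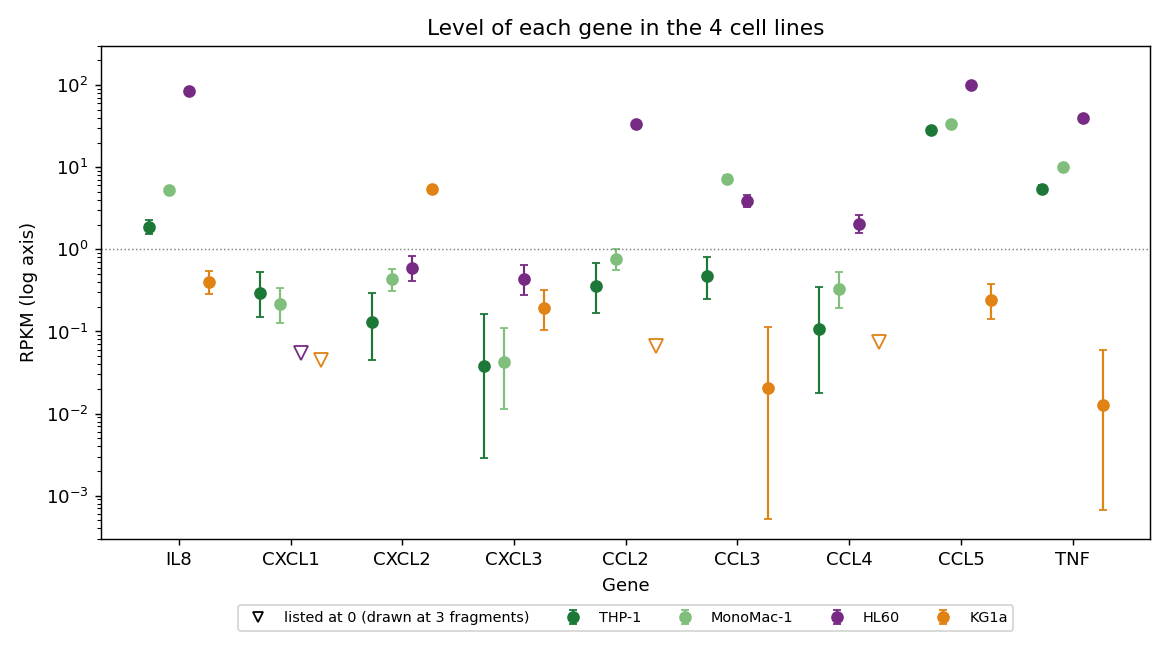
RPKM of each gene (log axis) in THP-1, MonoMac-1, HL60 and KG1a, 1 library per line, with 95% counting intervals as bars, open triangles for genes listed at 0 (drawn at the level of 3 fragments) and a dotted line at 1 RPKM. HL60 leads for IL8, CCL2, CCL4, CCL5 and TNF, MonoMac-1 for CCL3 and KG1a for CXCL2.

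Between 6.04 (THP-1) and 13.6 gigabases (MonoMac-1) lay on genes per library. Counting intervals were computed from these bases taken as read pairs of 200 bases, and cover counting error only, because reads without molecular identifiers are not independent molecules. Of the defining markers, the monocyte gene LYZ was highest in MonoMac-1 (4837 RPKM) and next in THP-1 (510 RPKM), and CD34 was highest in KG1a (494 RPKM). Of 5 measured progenitor markers KG1a was highest for 4, while KIT was highest in THP-1 (9.06 RPKM) and lowest in KG1a (0.00634 RPKM). The progenitor markers PROM1 and MECOM were not measured. Of 6 measured granulocyte markers, MPO (4610 RPKM) and CEBPE were highest in HL60, while ELANE, PRTN3, AZU1 and CTSG were higher in both monocytic lines than in HL60. CD14, the endotoxin co-receptor of mature monocytes, was low, at 1.28 RPKM (THP-1), 4.13 (MonoMac-1), 0.0787 (HL60) and 0.0756 (KG1a). The 12 monocyte markers summed to 1007 RPKM (THP-1), 5299 (MonoMac-1), 90.4 (HL60) and 9.87 (KG1a). LYZ made up most of the MonoMac-1 sum, and without it the other 11 summed to 497 RPKM (THP-1), 463 (MonoMac-1), 78.4 (HL60) and 8.75 (KG1a). With or without LYZ both monocytic lines stood above HL60, unlike in the sum of the 9 genes, although CD33 and FCN1 were highest in HL60. In HL60, 37 genes that were abundant in KG1a and near 0 in both monocytic lines lay at a median of 2.71% of their KG1a level. That share of the KG1a value amounted to 25.0% of the HL60 level of CXCL2, to 1.2% for CXCL3 and to under 1% for the other genes detected in HL60.

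IL8, the prototype neutrophil attractant, showed the largest lead of HL60 among the CXC genes. IL8 (chromosome 4, 74606275 to 74609433, hg19 as listed) measured 1.89 RPKM (95% counting interval 1.55 to 2.28) for THP-1, 5.32 (4.93 to 5.73) for MonoMac-1, 85.1 (83.1 to 87.1) for HL60 and 0.400 (0.286 to 0.544) for KG1a. The order was HL60, MonoMac-1, THP-1 and KG1a, and no 2 neighbouring intervals overlapped. HL60 had 45.1 times the THP-1 level, MonoMac-1 2.82 times, and the THP-1 level was 4.72 times that of KG1a. In HL60 IL8 ranked 749 among all symbols, and in the other lines 8065 (MonoMac-1), 10317 (THP-1) and 12001 (KG1a).

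CXCL2, also called MIP-2 alpha, was the one gene of the set led by KG1a. CXCL2 (chromosome 4, 74962754 to 74964997) measured 0.131 RPKM (0.0454 to 0.295) for THP-1, 0.430 (0.308 to 0.584) for MonoMac-1, 0.589 (0.410 to 0.819) for HL60 and 5.43 (4.91 to 5.99) for KG1a. KG1a lay above the other 3 lines, and the intervals of HL60 and MonoMac-1 overlapped. After the KG1a share was taken off, HL60 was left at 0.441 RPKM.

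CXCL1 and CXCL3, close relatives of CXCL2, were scarce everywhere. CXCL1 (chromosome 4, 74735109 to 74736955), the growth-regulated oncogene alpha, measured 0.297 RPKM (0.151 to 0.526) for THP-1 and 0.215 (0.129 to 0.337) for MonoMac-1, and was listed at 0 in both HL60 and KG1a, where 3 fragments would have given 0.0551 and 0.0445 RPKM. Set against 3 fragments, the THP-1 value was 5.39-fold higher than in HL60 and 6.68-fold higher than in KG1a. This leaves out the counting error of the THP-1 value, whose interval starts at 0.151 RPKM. The counting intervals of the zeros reached 0.0678 RPKM in HL60 and 0.0547 RPKM in KG1a. The 2 monocytic lines overlapped in their intervals. CXCL3 (chromosome 4, 74902312 to 74904490) measured 0.0382 RPKM (0.00286 to 0.161) for THP-1, 0.0430 (0.0115 to 0.111) for MonoMac-1, 0.432 (0.278 to 0.640) for HL60 and 0.191 (0.103 to 0.324) for KG1a. Each of its neighbouring steps overlapped, and the THP-1 value rested on 1.53 fragment equivalents.

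The level of IL8 relative to its relatives differed between lines. The ratio of IL8 to CXCL2 was 14.4 for THP-1, 12.4 for MonoMac-1 and 145 for HL60, whereas KG1a had 0.400 RPKM of IL8 beside 5.43 RPKM of CXCL2. These 4 genes lie within 359 kb of chromosome 4 in the deposited coordinates. The other 5 chemokine genes listed between them (CXCL6, PF4V1, PF4, PPBP and CXCL5) did not reach 1 RPKM in any line, and the highest of their values was CXCL6 at 0.191 RPKM in THP-1.

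CCL5, also known as RANTES and best known from T cells, platelets and activated macrophages, was the most abundant of the 9 genes in 3 lines. CCL5 (chromosome 17, 34198496 to 34207377) measured 28.1 RPKM (26.6 to 29.8) for THP-1, 33.3 (32.2 to 34.5) for MonoMac-1, 102 (99.2 to 104) for HL60 and 0.240 (0.142 to 0.379) for KG1a. The intervals of the 4 lines did not overlap, but the step between MonoMac-1 and THP-1 was only 1.18 times, and HL60 exceeded MonoMac-1 by 3.05 times. THP-1 exceeded KG1a by 117 times. The 12 T and NK cell markers, of which 5 were measured, summed to 16.6 RPKM (THP-1), 160 (MonoMac-1), 26.7 (HL60) and 276 (KG1a). NKG7 made up nearly all of the monocytic sums, and the other 11 summed to 0.668 RPKM (THP-1), 0.833 (MonoMac-1), 8.69 (HL60) and 153 (KG1a). Their part in the CCL5 levels was not tested.

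CCL2, the main attractant of CCR2-bearing monocytes (MCP-1), was far higher in HL60 than in the other lines. CCL2 (chromosome 17, 32582296 to 32584220) measured 0.362 RPKM (0.169 to 0.678) for THP-1, 0.761 (0.555 to 1.02) for MonoMac-1 and 33.5 (31.6 to 35.4) for HL60, and was listed at 0 in KG1a. HL60 exceeded MonoMac-1 by 44.0 times. Set against 3 fragments in KG1a (0.0658 RPKM), the HL60 value was 509-fold higher, while the KG1a counting interval reached 0.0809 RPKM. The monocytic lines overlapped in their intervals.

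CCL3 and CCL4 (MIP-1 alpha and beta), macrophage chemokines whose genes lie side by side on chromosome 17, parted between lines. CCL3 (34415603 to 34417506) measured 0.469 RPKM (0.249 to 0.802) for THP-1, 7.25 (6.59 to 7.94) for MonoMac-1, 3.89 (3.30 to 4.56) for HL60 and 0.0206 for KG1a, the last on 1 fragment equivalent. It was the one gene led by MonoMac-1, at 1.86 times HL60 and 15.5 times THP-1. CCL4 (34431220 to 34433014) measured 0.108 RPKM (0.0179 to 0.345) for THP-1, 0.331 (0.194 to 0.527) for MonoMac-1 and 2.05 (1.59 to 2.60) for HL60, and was listed at 0 in KG1a. HL60 exceeded MonoMac-1 by 6.18 times for CCL4, and the intervals of MonoMac-1 and THP-1 overlapped. Those of THP-1 and KG1a, the latter reaching 0.0906 RPKM, overlapped as well. The ratio of CCL3 to CCL4 was 4.35 for THP-1, 21.9 for MonoMac-1 and 1.90 for HL60. Of the other 9 chemokine genes listed between CCL2 and CCL4 only CCL23 was measured.

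TNF was graded across the lines. TNF (chromosome 6, 31543350 to 31546112) measured 5.38 RPKM (4.80 to 6.01) for THP-1, 10.1 (9.56 to 10.7) for MonoMac-1, 39.6 (38.2 to 41.0) for HL60 and 0.0128 (0.000666 to 0.0597) for KG1a. The intervals of the 4 lines did not overlap. HL60 exceeded MonoMac-1 by 3.92 times, and MonoMac-1 exceeded THP-1 by 1.88 times. The KG1a value rested on 1.3 fragment equivalents, so the ratio of THP-1 to KG1a was 421 with an interval of 97.6 to 21704. The flanking superfamily genes did not share this order: LTA, which encodes lymphotoxin alpha 1251 bases upstream, ranged from 0.0722 to 0.202 RPKM, and LTB, 2223 bases beyond TNF, was led by KG1a at 8.49 RPKM.

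The makeup of the summed level differed as well. CCL5 made up 76.4% (THP-1), 57.7% (MonoMac-1) and 38.1% (HL60), while in KG1a CXCL2 made up 86.3%. The other 8 genes without CXCL2 summed to 36.7 RPKM (THP-1), 57.3 (MonoMac-1), 266 (HL60) and 0.864 (KG1a). IL8 took 5.13% of the THP-1 sum and 31.9% of the HL60 sum, and CCL2 took 0.983% of the THP-1 sum and 12.6% of the HL60 sum. Of the 27 steps between neighbouring lines over the 9 genes, 9 had overlapping counting intervals and 18 did not. The same share was not counted for all measured genes, so nothing is read from it. These intervals cover counting error only, and in deep libraries small steps pass, such as 1.18 times for CCL5 between MonoMac-1 and THP-1.

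**Figure D2:**
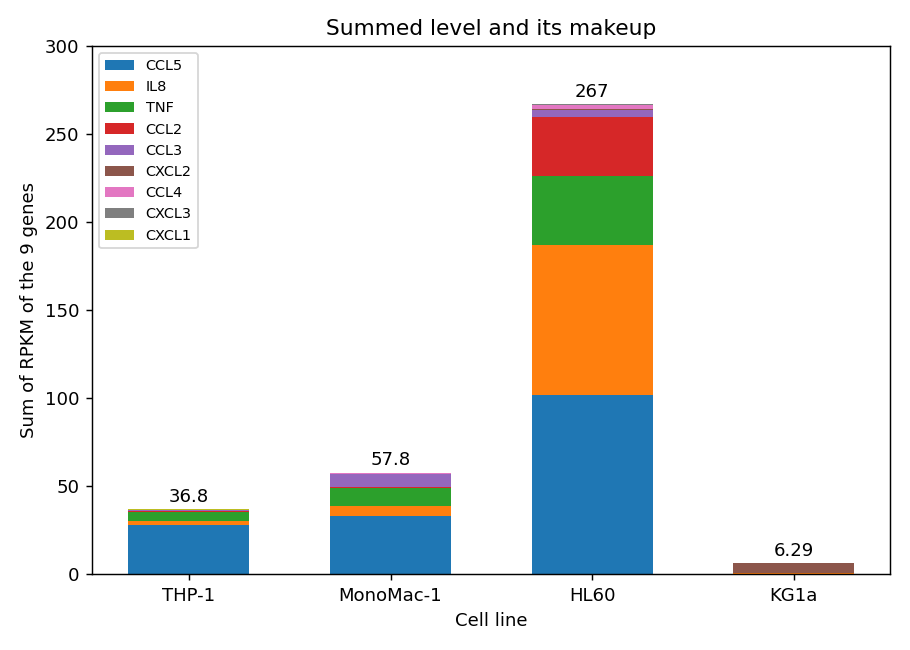
Summed RPKM of the 9 genes per cell line (1 library each), stacked by gene. The bars reach 36.8 (THP-1), 57.8 (MonoMac-1), 267 (HL60) and 6.29 RPKM (KG1a), and CCL5 is the largest block in the first 3 and CXCL2 in KG1a.

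Differences between pairs of lines were set against all measured genes on the scale of log2(RPKM + 1), where a pseudocount of 1 understates changes of scarce genes. A gene was called when this difference reached 2, a 4-fold difference on that scale. Members were chosen with these values known, so the counts describe the genes and nothing is read from their distance to the background.

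Against HL60 the monocytic lines had lower levels of several members and higher calls for none. In THP-1, 3 of the 9 were called lower than in HL60, where 2.1% of measured genes were lower, and 0 were higher (5.09% of measured genes). These were IL8 with a log2 difference of -4.90, CCL2 with -4.66 and TNF with -2.67. With a pseudocount of 0.1 or 0.5 the number was 5, CCL3 and CCL4 being added, and quantile normalization added CCL3. In MonoMac-1, IL8 (-3.77) and CCL2 (-4.29) were called lower than in HL60, 2 of the 9 against 1.69% of measured genes, and 0 were higher (5.08%). TNF at -1.87 and CCL5 at -1.58 did not reach the threshold, and CCL3 had the opposite sign at 0.75. A pseudocount of 0.1 added CCL4 at -2.32. The median over the 9 genes was -1.74 for THP-1 and -1.19 for MonoMac-1, beside 0.01 and 0.05 over all measured genes.

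Against KG1a most called members were higher in the monocytic lines, and CXCL2 was lower. TNF (2.65) and CCL5 (4.55) were called higher in THP-1 than in KG1a, 2 of the 9 against 6.72% of measured genes. IL8 (1.05) and CCL3 (0.53) were not called, although their plain ratios were 4.72 and 22.8. The CCL3 ratio had a counting interval of 3.43 to 970. In MonoMac-1, IL8 (2.17), TNF (3.45), CCL3 (3.01) and CCL5 (4.79) were called higher than in KG1a, 4 of the 9 against 7.11%. CXCL2 was the 1 gene called lower in each, with -2.51 in THP-1 (5.2% of measured genes) and -2.17 in MonoMac-1 (5.24%).

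The 2 MLL-AF9 lines differed from each other by the threshold in CCL3 alone. THP-1 was lower than MonoMac-1 in CCL3 by a log2 difference of -2.49, 1 of the 9 against 2.27% of measured genes, and 0 were called higher (2.03%). IL8 (-1.13) and TNF (-0.80) also stood lower in THP-1 without reaching the threshold, and CCL5 differed by -0.24.

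HL60 and KG1a were the most distant pair for these genes. IL8 (5.94), TNF (5.32), CCL2 (5.11), CCL3 (2.26) and CCL5 (6.37) were called higher in HL60 than in KG1a, 5 of the 9 against 4.1% of measured genes. CXCL2 was called lower at -2.02 (6.2% of measured genes), a call lost under median-of-ratios scaling at -1.97 and under quantile normalization at -1.73. Pseudocounts of 0.1 and 0.5 added CCL4 as higher (4.42 and 2.35), and a minimum of 5 RPKM removed CCL3. For the genes with 1 to 2 fragment equivalents in KG1a the ratio was loose: 3101 for TNF, with a counting interval of 723 to 159297, and 189 for CCL3, with 33.5 to 7538.

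The genes did not separate the monocytic MLL-AF9 lines from HL60 and KG1a as a pair. HL60 and KG1a lay at opposite ends for IL8, TNF, CCL2, CCL4 and CCL5, although for CCL4 the intervals of KG1a and THP-1 overlapped. By the 4-fold rule 0 of the 9 were higher in both monocytic lines than in both others (1.39% of measured genes) and 0 were lower (0.331%). By any margin 0 measured members were higher (22.1%) and 1, CXCL2, was lower (19.6%). The counts depended on which line was left out. With a line left out fewer comparisons have to hold, so more genes can pass. The share of all measured genes was not counted for these subsets, so the counts below are description only. Without HL60 the 4-fold rule gave 2 higher members (TNF and CCL5) and 1 lower (CXCL2), and any margin gave 4 higher (also IL8 and CCL3). Without KG1a it gave 2 lower (IL8 and CCL2), and any margin gave 5 lower (also TNF, CCL4 and CCL5). Without THP-1 any margin gave 1 higher, CCL3.

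**Figure D3:**
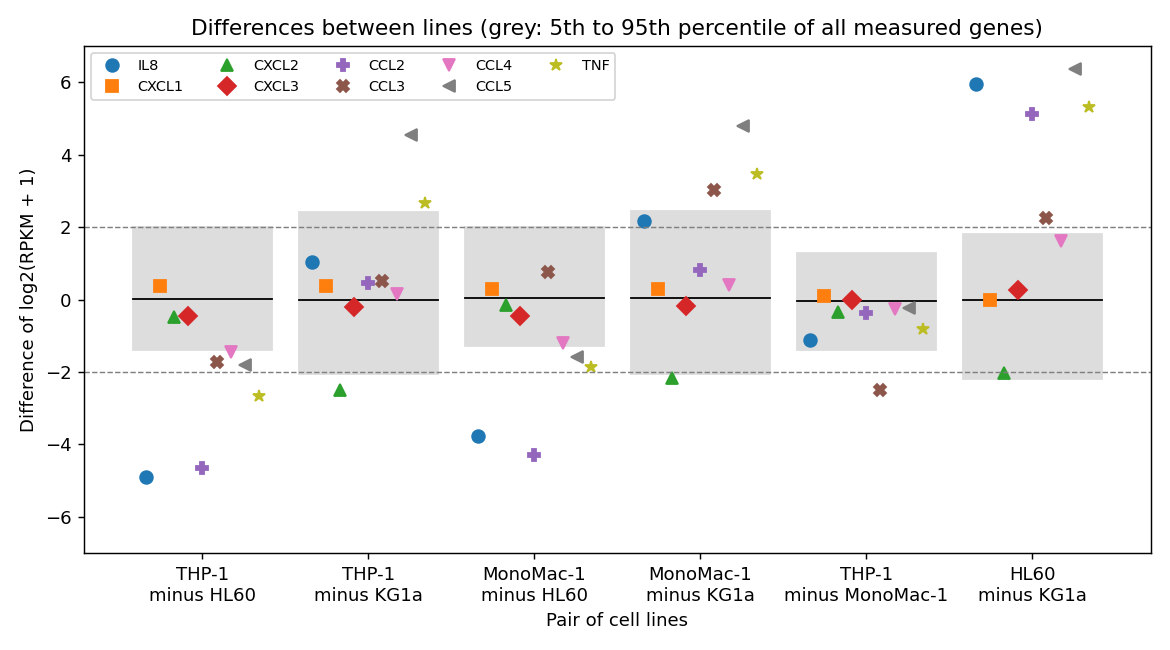
Difference of log2(RPKM + 1) for each of the 9 genes in the 6 pairs of lines (first line minus second), with grey boxes from the 5th to the 95th percentile of the 12976 measured genes, a black line at their median and dashed lines at the thresholds of 2 and -2. IL8 and CCL2 lie far below the boxes against HL60, and IL8, TNF, CCL2 and CCL5 far above the box in HL60 minus KG1a.

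The genes whose profile over the 4 lines was most like each measured member were named by the distance between mean-centred log2(RPKM + 1) profiles, a description over 4 points. For IL8 the nearest was another of the 9, CCL2 (distance 0.98 on the log2 scale), followed by the metallothionein gene MT2A (1.38) and the collagen prolyl hydroxylase gene LEPREL2 (1.42). MT2A, with 23.2 (THP-1), 49.8 (MonoMac-1), 220 (HL60) and 7.54 RPKM (KG1a), was also second for TNF (0.85), between CORO2A (0.80) and TGIF1 (0.85). CCL2 was nearest to EPX (0.64), the eosinophil peroxidase gene, at 38.5 RPKM in HL60 and under 1 RPKM in the other lines, and then to IGF2BP1 (0.73) and ETV4 (0.80). For CCL5 the nearest was IMPA2 (0.56), with 28.1 (THP-1), 47.5 (MonoMac-1), 122 (HL60) and 0.0478 RPKM (KG1a), followed by TRIP6 (0.93) and GAL (0.99). CCL3 was nearest to SMOX (0.35), PFKM (0.47) and the AP-1 subunit gene JUNB (0.48). CCL4 was nearest to IPO4 (0.093), TRAP1 and NAMPT (both 0.12), and CXCL2 to KLHL6 (0.14), TRIM8 (0.18) and C2orf88 (0.20). The pseudocount of 1 shrinks ratios of scarce genes, so a short distance does not mean equal ratios. CCL4 had 2.05 RPKM in HL60 and 0 in KG1a, whereas IPO4 had 54.6 and 16.9 RPKM. CXCL2 had 0.131 RPKM in THP-1 and 5.43 in KG1a, whereas KLHL6 had 4.80 and 27.9 RPKM.

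The receptors of these ligands had a different order. Of 11 receptor genes 8 were measured. TNFRSF1A, the broadly expressed TNF receptor, measured between 34.5 RPKM (THP-1) and 60.5 RPKM (KG1a). TNFRSF1B, the receptor found mainly on leukocytes, measured 22.9 RPKM for THP-1, 24.8 for MonoMac-1, 20.02 for HL60 and 0.0401 for KG1a, the line with the least TNF. CCR2, the receptor of CCL2, measured 68.3 RPKM for THP-1, 37.2 for MonoMac-1, 0.0725 for HL60 and 0.861 for KG1a, so HL60 had the highest CCL2 and the lowest CCR2. CXCR2, which binds IL8 and CXCL1 to CXCL3, measured 13.6 RPKM for THP-1, 7.79 for MonoMac-1, 5.71 for HL60 and 0.642 for KG1a, whereas CXCR1 was at most 0.101 RPKM. CCR1, a receptor of CCL3 and CCL5, measured 16.2 RPKM for THP-1, 21.8 for MonoMac-1, 3.20 for HL60 and 0.171 for KG1a. KG1a was lowest for TNFRSF1B, CXCR2 and CCR1, where 29.7% of all measured genes were lowest in KG1a. It was also highest for 3 of the 8, TNFRSF1A among them, beside 31% of all measured genes. By the threshold CCR1 and CCR2 were higher in each monocytic line than in HL60, 2 of 8 in both pairs. Of all measured genes 5.09% (THP-1) and 5.08% (MonoMac-1) were higher. Medians over the 8 were 0.57 in THP-1 and 0.34 in MonoMac-1, beside 0.01 and 0.05 over all measured genes. Against KG1a 4 of 8 were higher in each monocytic line and 2 of 8 in HL60, and 0 were lower, where 6.72% (THP-1), 7.11% (MonoMac-1) and 4.1% (HL60) of measured genes were called higher than in KG1a. The medians over the 8 were 1.83, 1.05 and -0.45 in that order of lines, beside -0.02, 0.03 and -0.02 over all measured genes.

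Other NF-kappaB targets were more often highest in KG1a than in HL60, and their medians lay below HL60 in both monocytic lines. Of 16 listed targets outside the 9 genes 15 were measured, and IL6 was listed at 0 in all lines. KG1a was highest for 9 of the 15, MonoMac-1 for 4, HL60 for 2 (BCL2A1 and CD83) and THP-1 for 0, where 31%, 24.9%, 23.1% and 21% of all measured genes were highest in those lines. ICAM1, an adhesion molecule, measured 0.560 RPKM for THP-1, 2.14 for MonoMac-1, 1.69 for HL60 and 12.1 for KG1a. BIRC3, an inhibitor of apoptosis, likewise measured 0.345 RPKM for THP-1, 0.684 for MonoMac-1, 1.16 for HL60 and 9.49 for KG1a. IL1B, the interleukin 1 beta gene, measured 0.388 RPKM for THP-1, 3.80 for MonoMac-1, 1.48 for HL60 and 5.99 for KG1a. All 3 were highest in KG1a and lowest in THP-1. TNFAIP2 differed from these, with 17.5 RPKM for THP-1, 32.1 for MonoMac-1, 9.71 for HL60 and 5.14 for KG1a. By the threshold 2 of 15 were lower in THP-1 than in HL60 (BCL2A1 and CD83) and 0 were higher. Of all measured genes 2.1% were lower and 5.09% higher. The median was -0.79 beside 0.01 over all measured genes. Between MonoMac-1 and HL60 0 of 15 were called (1.69% lower and 5.08% higher over all), with a median of -0.33 beside 0.05. Between HL60 and KG1a 0 were higher (4.1% over all) and 2 lower (BIRC3 and ICAM1, 6.2% over all), with a median of -0.33 beside -0.02.

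**Figure D4:**
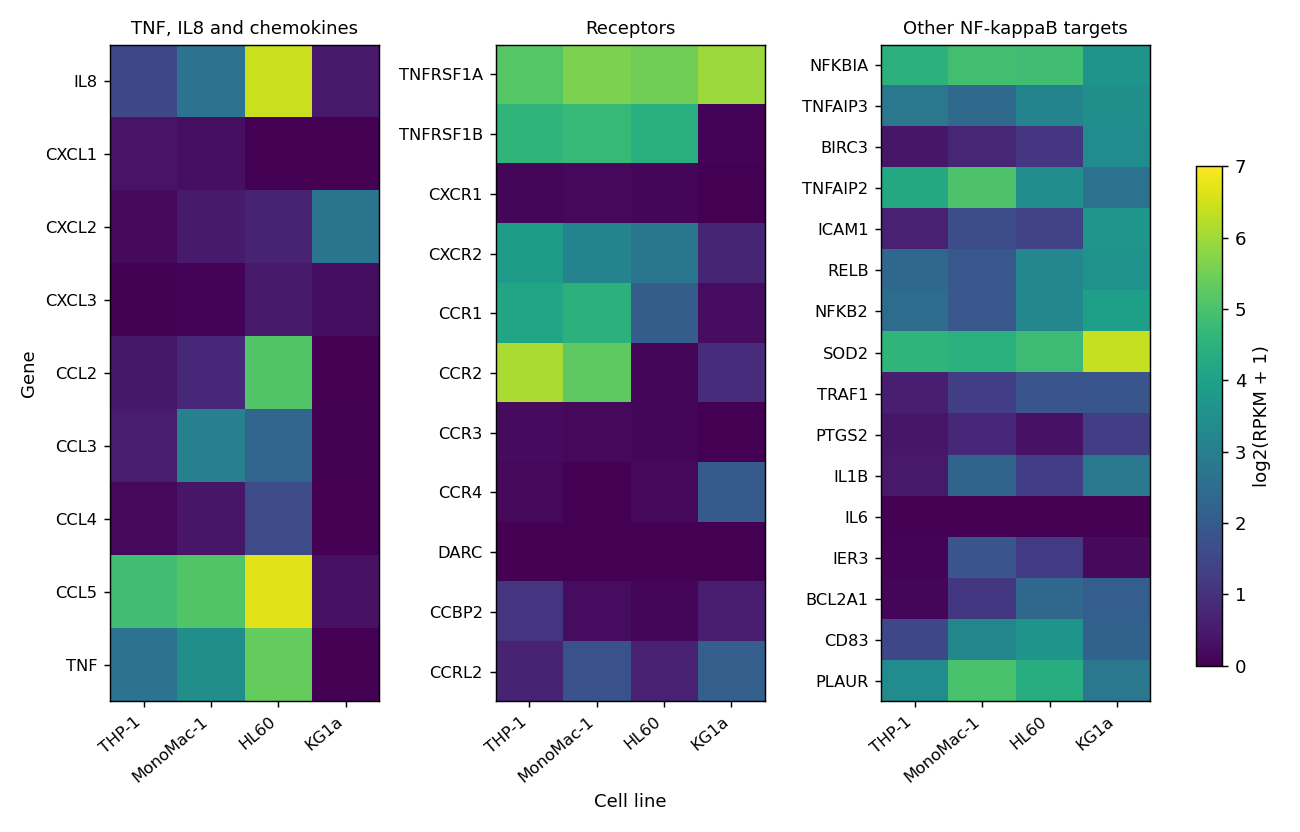
Level as log2(RPKM + 1) (colour scale 0 to 7) of the 9 genes, 11 receptor genes and 16 other NF-kappaB target genes in THP-1, MonoMac-1, HL60 and KG1a, 1 library each. The HL60 column is bright for CCL5, IL8, TNF and CCL2, CCR2 and CCR1 are bright in THP-1 and MonoMac-1, and SOD2 in KG1a.

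The signalling genes, some of which also stand in the list of targets, gave few calls against HL60, as did measured genes in general. Over all measured genes 5.09% were higher and 2.1% lower in THP-1 than in HL60. In MonoMac-1 5.08% were higher and 1.69% lower than in HL60. Among 15 NF-kappaB subunits, inhibitors and kinases, 0 were called between THP-1 and HL60 and 1, NFKBIZ, was higher in MonoMac-1 than in HL60. RELA, the main activating subunit, measured 27.9 RPKM for THP-1, 26.5 for MonoMac-1, 33.0 for HL60 and 62.2 for KG1a, and BCL3, a nuclear cofactor, had 1.48 (THP-1), 1.56 (MonoMac-1), 5.26 (HL60) and 28.6 RPKM (KG1a). Of 19 genes of TNF shedding and signalling, 0 were called between THP-1 and HL60, and LITAF, named for its link to TNF expression, was lower in MonoMac-1 than in HL60. LITAF measured 22.5 RPKM for THP-1, 6.54 for MonoMac-1, 44.8 for HL60 and 0.0056 for KG1a, highest in HL60 and lowest in KG1a as TNF was. TRAF5 and BIRC3 were called lower than in KG1a in the other 3 lines, as were 5.2% (THP-1), 5.24% (MonoMac-1) and 6.2% (HL60) of measured genes. KG1a was highest for 13 of the 19, and for 31% of measured genes. ADAM17, the protease that sheds TNF, lay between 11.7 and 19.9 RPKM.

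Among genes of proteins that bind AU-rich elements, ZFP36 and ZFP36L1 alone were called in some pair. Of 9 measured genes, 1, ZFP36, was higher in MonoMac-1 than in HL60 (5.08% of all measured genes). Between THP-1 and HL60 0 were called (5.09% higher and 2.1% lower). ZFP36L1 was lower than in KG1a in THP-1 (5.2%), MonoMac-1 (5.24%) and HL60 (6.2%). ZFP36 was also higher in MonoMac-1 than in KG1a (7.11%). ZFP36 (tristetraprolin), which promotes decay of TNF mRNA, measured 33.1 RPKM for THP-1, 62.1 for MonoMac-1, 11.6 for HL60 and 10.2 for KG1a. ZFP36L1, its relative, measured 0.472 RPKM for THP-1, 0.322 for MonoMac-1, 1.57 for HL60 and 49.3 for KG1a.

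Most other chemokine genes stayed under 1 RPKM. Of 40 further chemokine symbols 35 had an entry and 7 were measured; CCL14, CCL3L1, CCL3L3, CCL4L1 and CCL4L2 were not analysed here. CCL23, an attractant of monocytes and resting T cells, measured 19.2 RPKM for THP-1, 8.86 for MonoMac-1, 4.19 for HL60 and 0 for KG1a. CXCL10, an interferon-induced chemokine, was led by KG1a at 4.27 RPKM, with 0.0734 (THP-1), 0.161 (MonoMac-1) and 0.104 (HL60) elsewhere. CCL28 measured 3.45 RPKM for THP-1, 1.42 for MonoMac-1, 0.141 for HL60 and 7.83 for KG1a.

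Sequence shared with other genes may limit the values of some members. Of the 100-base words in the GENCODE 29 transcripts of each gene, 5.00% in CXCL2 and 3.27% in CXCL3 were shared between these 2 genes. In CCL4 2.83% were shared with CCL4L2. In CCL5 6.29% occurred in transcripts of other genes such as PLEKHD1 and ITGA1, none of them a chemokine gene. IL8, TNF, CXCL1, CCL2 and CCL3 shared 0. Reads from shared stretches may be split between genes by the authors' counting. Only exact words were counted, which miss copies that differ by scattered bases. A share of 0 therefore does not show that a gene has no close copies.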

How the data were processed

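RNA from 4 leukemia cell lines, 1 library each, was extracted with TRIzol and sequenced with Illumina libraries, per the labels' protocols. CASAVA 1.8.2 and the hg19 build are named in the submitters' processing notes. The aligner, annotation, strand handling and filters were not given in the sources used here. Each line came with 1 table of 21893 entries, in which the authors deposited RPKM values and a whole-number coverage signal. The deposited coverage signal has no stated unit and was read from its values as sequenced bases on the gene, since 200 was the commonest low value in every library. Multiples of 100 made up 44.8% to 49.7% of low values in 3 libraries but 12.7% in MonoMac-1, so its counting intervals are less certain. The RPKM that the authors deposited was used unchanged.

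Groups were the lines named in the labels. For 28 symbols listed more than once, the entry of highest mean was kept. Values were compared as log2(RPKM + 1), and genes that reached 1 RPKM anywhere were called measured. Counting intervals of levels are exact Poisson intervals at 95% on the coverage divided by 200 bases. Those of ratios are exact binomial (Clopper-Pearson) intervals at 95% on fragment equivalents rounded to whole numbers, while the ratios themselves use unrounded values. A gene listed at 0 was set to 3 fragments per library for ratios, which take the other line at its measured value and are not 95% bounds. No test was run, as each line had 1 library. The members and lists were chosen with earlier results of these data known. All 9 members were named, with the 3 most similar profiles of each measured member (smallest Euclidean distance, among genes whose range over the lines was at least 0.5 times that of the member), and at most 4 called genes of largest range per list, besides levels of other list genes chosen after their values were seen (TNFRSF1A, CXCR1, IL6, RELA, ADAM17, LTA, LTB, CXCL6, SOD2, marker genes and the calls BCL2A1 and CD83). Alternatives were other pseudocounts, minimum values, median-of-ratios scaling, quantile normalization, removal of the KG1a share from HL60, summing of repeated entries, intervals counted per single read and leaving out each line. 1 receptor gene of the lists is not reported here. Python 3.11.15, pandas 2.3.3, numpy 2.4.6 and scipy 1.17.1 were used.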

Additional observations from a re-analysis of the deposited data

How the results depend on the processing

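The order of the lines for the sum of the 9 genes was the same under each scaling tried. Median-of-ratios scaling put the sum at 55.5 RPKM in MonoMac-1 and 275 RPKM in HL60, and quantile normalization put it at 54.5 RPKM in MonoMac-1. HL60 was highest for 6 of the 9 genes under median-of-ratios scaling, quantile normalization and removal of the KG1a share. Quantile normalization turned CXCL1 from THP-1 to MonoMac-1. Other pseudocounts and minimum values cannot change which line is highest, and summing repeated entries left the summed levels unchanged. Pseudocounts of 0.1 and of 0.5 each gave 5 members lower in THP-1 than in HL60, in place of 3, and quantile normalization gave 4. The 1 member lower in HL60 than in KG1a, CXCL2, became 0 under median-of-ratios scaling and 0 under quantile normalization. With no minimum RPKM, any margin gave 1 member higher and 2 lower in both monocytic lines than in HL60 and KG1a, from CXCL1 and CXCL3 entering. Over the 4 fits that each left out a line, members higher by the 4-fold rule ranged from 0 to 2 and lower from 0 to 2. By any margin they ranged from 0 to 4 higher and from 1 to 5 lower. Leaving out a line lets more genes pass, and the share of all measured genes was not counted for these fits. With intervals counted per single read, 6 of the 27 neighbouring steps overlapped, in place of 9. Levels of a few fragments (CXCL3 and CCL4 in THP-1, CXCL3 in MonoMac-1, TNF and CCL3 in KG1a) are limited by depth. No paired analysis was possible because each line had 1 library and the labels carry no replicate numbers.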

Other observations

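Ligands of the TNF superfamily other than TNF were not led by HL60. Of 17 listed genes 9 were measured, and KG1a was highest for 5, MonoMac-1 for 3, THP-1 for 1 and HL60 for 0, beside 31%, 24.9%, 21% and 23.1% of all measured genes. CD70, a costimulatory ligand, measured 56.5 RPKM for THP-1, 43.3 for MonoMac-1, 8.57 for HL60 and 0.0179 for KG1a. TNFSF13B, the B cell survival factor BAFF, measured 4.80 RPKM for THP-1, 73.5 for MonoMac-1, 27.7 for HL60 and 11.6 for KG1a. TNFSF8 was at 24.7 RPKM and TNFSF4 at 17.03 RPKM in KG1a, and both stayed under 1.2 RPKM in the other 3 lines. In HL60, the line with the most TNF, TNF itself exceeded each of these ligands, TNFSF13B at 27.7 RPKM being the nearest.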
